A study of Mus musculus with 4 samples.

Results

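Multi-exon intergenic lncRNAs are transcripts of the NONCODE catalogue that the deposited annotation puts in the class Linc and that have at least 2 exons. They numbered 31211 of the 131850 lncRNAs listed and were chosen by class and exon count alone. C3H10T1/2 is an established multipotent line from C3H mouse embryos, and 5-AZA is 5-azacytidine, a nucleoside drug that traps DNA methyltransferases and so lowers DNA methylation. Total RNA was sequenced after ribosomal RNA removal from 2 untreated samples (1 and 2) and 2 5-AZA samples (101 and 102). The 5-AZA cells received 20 µmol/L for 72 h and then grew in fresh medium for 21 days, while the labels give no culture time for the untreated cells. The study calls the samples of a group biological repeats, but neither it nor the labels say that they were separate cultures. Each p-value thus measures only the spread between these samples. The question was which of these transcripts differ in level between untreated cells and cells grown on after 5-AZA.

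A long noncoding RNA is a transcript without a long open reading frame, and an intergenic one starts and ends outside protein-coding genes. Many are capped, spliced and polyadenylated like messenger RNA, and they are often present at low level and in few tissues. Some act on chromatin where they are made, as Xist does on the inactive X chromosome, and others serve as precursors of miRNAs or small nucleolar RNAs, which lie in their exons or introns.

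The miRNA lines below belong to H19, the imprinted lncRNA with the largest fitted log2 fold change, whose first exon is the precursor of miR-675. RefSeq (GRCm38.p6) places the hairpin Mir675 at chr7:142577064-142577147 on the minus strand, inside the member NONMMUT064276.2. Capitals mark the seed, bases 2 to 8, through which a miRNA pairs with its targets.
mmu-miR-675-5p: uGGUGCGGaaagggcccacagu
mmu-miR-675-3p: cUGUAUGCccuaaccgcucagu

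The 300 bases around a RefSeq start (250 before and 50 after it, build GRCm38.p6) could be matched within 100 bases to the start of 8 members that passed the test as higher after 5-AZA. Of the 28 pairs of these 8 promoters, 3 pairs shared an unbroken run of at least 20 letters, and the longest run in any other pair was 10 letters. The 3 promoters, of Gm14149, Gm33671 and Gm19757, are printed since they share 23 letters, which are in capitals. Gm14149 lies at chr2:151204945-151205244 on the plus strand, Gm33671 at chr10:21216246-21216545 on the plus strand and Gm19757 at chr6:105492619-105492918 on the minus strand.
Gm14149: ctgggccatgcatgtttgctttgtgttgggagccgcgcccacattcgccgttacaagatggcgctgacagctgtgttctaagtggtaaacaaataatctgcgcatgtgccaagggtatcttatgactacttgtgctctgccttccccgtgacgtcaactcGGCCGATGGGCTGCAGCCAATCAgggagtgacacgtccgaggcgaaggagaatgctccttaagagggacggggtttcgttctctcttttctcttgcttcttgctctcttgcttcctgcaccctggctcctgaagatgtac
Gm33671: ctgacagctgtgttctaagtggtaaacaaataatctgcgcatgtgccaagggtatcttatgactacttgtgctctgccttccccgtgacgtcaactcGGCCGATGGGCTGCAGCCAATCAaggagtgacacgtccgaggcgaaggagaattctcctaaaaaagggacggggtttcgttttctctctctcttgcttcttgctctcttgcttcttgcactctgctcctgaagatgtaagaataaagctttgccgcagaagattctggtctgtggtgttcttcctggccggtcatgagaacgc
Gm19757: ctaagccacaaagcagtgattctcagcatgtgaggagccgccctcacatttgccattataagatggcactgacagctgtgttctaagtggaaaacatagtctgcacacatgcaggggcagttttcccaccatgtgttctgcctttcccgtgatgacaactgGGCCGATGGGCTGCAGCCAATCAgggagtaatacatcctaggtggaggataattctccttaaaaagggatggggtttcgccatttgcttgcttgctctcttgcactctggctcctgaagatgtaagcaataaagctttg
Gm14149 and Gm33671 matched over 120 letters without a break. The 23 letters occurred in 12 of the 32851 promoters of the table, which is 0.0365%. The run was found by comparing these promoters after their members had been called, so its count among them is a description. Of the 435 promoters of tested members that were not called 21 (4.83%) shared some run of that length with another, non-overlapping promoter of the 435, and 0 held this one. No repeat annotation was used here.

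The values are FPKM, in which fragments are divided by transcript length and by library size, and the read depth behind a value is unknown. Of the 31211 members, 18908 were listed at 0 in all 4 samples and 3116 (9.98%) had a mean of at least 0.1 FPKM and were tested. The tested members fell into 2306 loci of overlapping transcripts on the same strand. Their spliced length had a median of 1355 bases, against 789 over all members, and the plus and minus strands held 1564 and 1552 of them. In all members 53.6% had 2 exons, 22.9% had 3, 11.2% had 4 and 12.3% had 5 or more. Coordinates are given on GRCm38, since the spans of 1138 members equalled RefSeq gene spans of that build, although the submitters' processing notes list mm9.

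The class label was checked against RefSeq. Of the 3116 tested members, 1600 (51.3%) overlapped the span of a protein-coding gene, 830 of them on the same strand, so the word intergenic holds for less of the tested set than its name says. Another 1012 (32.5%) overlapped only a noncoding gene or pseudogene, and 504 (16.2%) overlapped no RefSeq gene. Reads of an overlapping gene, or of transcripts that share exons, can be divided differently between them by the quantifier, and the use of strand in the counting is not given in the sources used here.

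The cells themselves differed between the groups. Over all 13199 genes tested 13.1% were called higher and 1.32% lower, which is the background of the counts here. Of 8 mesenchymal markers 1 (Thy1) was called higher and 0 lower. They summed to 8100 and 8138 FPKM in the untreated samples and to 4540 and 4423 FPKM after 5-AZA, and the sum was carried by S100a4 and Vim, while Cd44, Pdgfra and Pdgfrb had log2 fold changes above 0. Skeletal muscle markers passed the test as higher in 13 of 15 genes, from sums of 1.75 and 1.48 to 780.0 and 1191 FPKM, with Myf5 and Myf6 listed at 0 throughout. Adipocyte markers did so in 5 of 6 (47.7 and 32.7 to 1092 and 1497 FPKM), germ cell markers in 4 of 5 (0.0747 and 0.0505 to 21.7 and 25.5 FPKM) and cardiac markers in 2 of 9, 5 of which were at 0. Of 4 chondrocyte markers 2 were called lower and 1 higher, and 1 of 5 osteoblast and 1 of 5 immune markers was called higher. The part of these markers in the changes of the lncRNAs was not tested, and in bulk RNA fewer cells of a type and less RNA per cell cannot be told apart.

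The number of members at a given level was close in the 4 samples except at the top. At 1 FPKM or more there were 738 and 714 members in untreated cells and 720 and 708 after 5-AZA. At 100 FPKM or more there were 10 and 15 in untreated cells and 24 in each 5-AZA sample. The summed FPKM of all members was 14772 and 22248 in untreated cells, and 21670 and 73248 in 5-AZA 101 and 102. The last sum stood apart through the single transcript NONMMUT020725.2, and without it the sums were 11101, 18254, 18108 and 23284. This member overlaps Rpph1, the RNA subunit of RNase P, an enzyme that trims transfer RNA precursors. Its level was 3671 and 3994 FPKM in untreated cells, 3562 in 5-AZA 101 and 49964 in 5-AZA 102, so that 5-AZA 102 was far above and the other 5-AZA sample below both untreated samples.

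Members called higher after 5-AZA outnumbered members called lower. A member was called when limma's adjusted p, over all 24075 lncRNAs tested, was below 0.05 and the level on the log2(FPKM + 0.1) scale differed more than 2-fold. Of the 3116 members 59 (1.89%) were called higher and 6 (0.193%) lower, while over all lncRNAs tested 0.984% were called higher and 0.154% lower. Without adjustment, 285 members were higher and 204 lower with p below 0.05 in limma, where the shares over all lncRNAs tested were 5.25% and 7.89%. The median log2 fold change of the members was -0.12, against -0.23 over all lncRNAs tested. Centring each sample on its median added 0.17 to every log2 fold change and brought the members' median to 0.041. Changes smaller than this shift thus have no settled direction, and some larger ones that were not called also turned sign under other settings. None of these calls held with any of the 4 samples left out, which leaves a lone sample in a group. All 59 and all 6 kept a change of more than 2-fold. Their direction could not turn in these fits, since the groups overlapped in none of them.

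Both 5-AZA samples lay above both untreated samples in 620 members (19.9%, against 14.6% of all lncRNAs tested) and below both in 774 members (24.8%, against 31.7%). Single members varied between samples of a group, with a median absolute difference of 0.529 on the log2 scale between the untreated samples and 0.579 between the 5-AZA samples. Single-exon lncRNAs of the class Linc had 54 of 9048 (0.597%) called higher, multi-exon lncRNAs without a class 40 of 2441 (1.64%), and multi-exon lncRNAs of the other classes 20 of 724 (2.76%). The share among multi-exon Linc members thus lay between those of the other multi-exon groups, and the difference between groups was not tested.

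**Figure D1:**
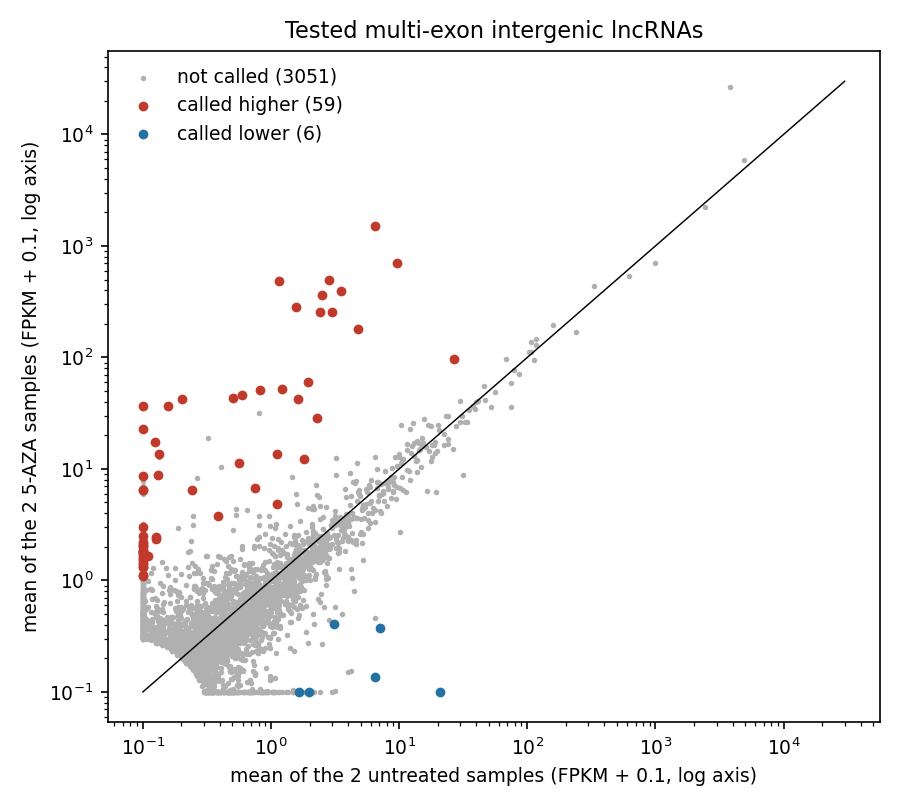
Mean FPKM + 0.1 of each of the 3116 tested members in the 2 untreated samples (x axis) and in the 2 5-AZA samples (y axis), both on log axes, with the diagonal as a line and calls by colour. The 59 members called higher lie well above the diagonal, up to a 5-AZA mean of 1525 FPKM, and the 6 called lower lie near the bottom of the plot.

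Members called higher were mostly near 0 in untreated cells. The untreated mean was below 0.1 FPKM in 33 of the 59, and 9 were listed at 0 in both untreated samples. The limit for testing was a mean of 0.1 FPKM over the 4 samples, so these 33 passed it only through their 5-AZA values. Of all 3116 tested members 976 had a mean under 0.1 FPKM in 1 of the groups, so this count is a description. After 5-AZA 10 of the 59 had a mean of at least 100 FPKM, 17 had 10 to 100 FPKM and 32 were below 10 FPKM. Together they held 0.542% and 0.334% of the members' summed FPKM in untreated cells and 22.8% and 8.68% after 5-AZA. In 5-AZA 102 the single member NONMMUT020725.2, which was not called, made up 68.2% of that sum. The 59 themselves summed to 4951 FPKM in 5-AZA 101 and 6356 FPKM in 5-AZA 102. The share called higher was 0.74% of the 2434 members with a mean under 1 FPKM, 3.33% of 571 at 1 to 10 FPKM, 14.8% of 88 at 10 to 100 FPKM and 39.1% of 23 at 100 FPKM or more. The mean over the 4 samples contains the rise itself, so this order is a description.

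H19 had the largest log2 fold change at the pseudocount of 0.1 FPKM. With 0.01 FPKM members listed near 0 in untreated cells, such as NONMMUT084962.1 (11.8, against 8.79 for H19), came before it, and in FPKM NONMMUT021401.2 gained more. An imprinted, maternally expressed lncRNA, H19 is abundant in embryonic mesoderm and muscle. H19 (NONMMUT064276.2, chr7:142575530-142578146, minus strand, 5 exons, 2288 bases) stood at 0.942 and 1.16 FPKM in untreated cells and at 370.1 and 589.9 FPKM after 5-AZA. Both untreated samples were near 1 FPKM, and both 5-AZA samples were far higher, with no overlap. The log2 fold change was 8.67 (SE 0.29, limma adjusted p = 0.00462).

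The 9 other members with the largest rises have no described function known here. NONMMUT084962.1 (chr11:23195282-23224504, minus strand, 2 exons) was at 1.15e-31 and 1.58e-18 FPKM, which are 0 in effect, in untreated cells and at 28.4 and 44.3 FPKM after 5-AZA. Its fitted log2 fold change of 8.47 (adjusted p = 0.00482), like that of every member near 0 in one group, depends on the pseudocount. NONMMUT021401.2 (chr14:68682208-68900277, minus strand, 4 exons), which overlaps Gm31281 and is named in the study, had the highest 5-AZA level of the called members. It went from 8.35 and 4.39 FPKM to 1359 and 1690 FPKM (log2 fold change 7.94, SE 0.36, adjusted p = 0.00649). The study chose it on these samples, so its rise here is not independent evidence. It was also reported higher by qRT-PCR there, and whether that RNA came from other cultures is not stated. In each of these transcripts the lower 5-AZA sample was above the higher untreated sample.

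Gm14149 (NONMMUT040449.2, chr2:151205195-151231614, plus strand, 4 exons), the first of the promoters printed above, was at 0.0940 and 0.0228 FPKM in untreated cells and 32.7 and 40.6 FPKM after 5-AZA (log2 fold change 7.89, SE 0.33, adjusted p = 0.00588). NONMMUT065481.2 (chr8:46349884-46399942, minus strand, 5 exons), which overlaps Gm30931, was at 0.1001 and 0.1015 FPKM and then at 33.7 and 50.6 FPKM (log2 fold change 7.69). In both the untreated samples were close to or below 0.1 FPKM, and the 5-AZA samples did not overlap them. NONMMUT085309.1 (chr11:61392350-61397639, minus strand, 2 exons), over Gm42081, was listed at 4.47e-78 and 0 FPKM in untreated cells. After 5-AZA it was at 11.4 and 33.8 FPKM, the largest ratio between 5-AZA samples among these 10, and its adjusted p was 0.0214 in limma.

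At 1 locus on chromosome 5, 2 members were called. NONMMUT051321.2 (chr5:17269150-17269830, minus strand, 3 exons) went from 3.86 and 1.59 FPKM to 429 and 569 FPKM, a log2 fold change of 7.58 (SE 0.47, adjusted p = 0.0113). NONMMUT051320.2, which overlaps it and was named after its values were seen, went from 3.17 and 3.72 FPKM to 352 and 443 FPKM. Their summed level was 7.03 and 5.31 FPKM in untreated cells and 781 and 1012 FPKM after 5-AZA, a log2 fold change of 7.16.

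The remaining members of the 10 were already detected in untreated cells, except the last. NONMMUT058367.2 (chr6:111898110-111938867, plus strand) went from 1.92 and 1.02 FPKM to 255 and 315 FPKM, and NONMMUT074149.2 (chrX:143172663-143179451, minus strand) from 2.26 and 2.53 FPKM to 319.8 and 402 FPKM. NONMMUT067603.2 (chr8:123425874-123434150, minus strand) went from 0.0378 and 0.00892 FPKM to 18.4 and 16.3 FPKM. The log2 fold changes were 7.56, 7.17 and 7.15. In the last of them 5-AZA 101 was the higher sample, whereas over the 59 members 5-AZA 102 was above 101 in 40 (67.8%, against 47.8% of all tested members).

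**Figure D2:**
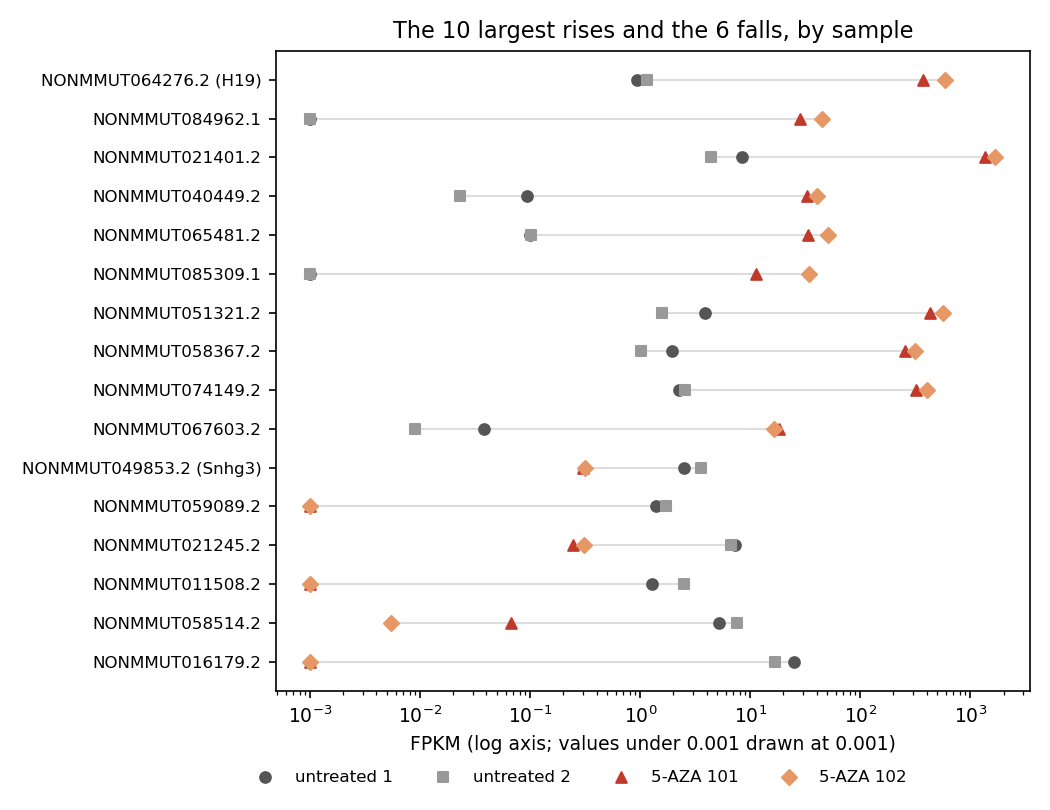
FPKM of the 10 largest rises and the 6 falls in each of the 4 samples on a log axis, with a symbol for each sample and values under 0.001 FPKM drawn at 0.001. The 5-AZA symbols of the risen members lie to the right of both untreated symbols, and those of the fallen members to the left. The rule for naming them required this.

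Among the most abundant members 1 more was called higher by a wide margin. NONMMUT065088.2, which overlaps Gm32621, went from 10.3 and 8.88 FPKM to 604 and 795 FPKM (log2 fold change 6.17, adjusted p = 0.00468). NONMMUT052382.2 (chr5:60016287-60043022, plus strand), the other member named in the study, showed the smallest called rise. The study reported it higher by qRT-PCR too. It was at 24.4 and 28.6 FPKM in untreated cells and at 107 and 85.7 FPKM after 5-AZA, so the groups did not overlap. Its log2 fold change was 1.86 (SE 0.20, adjusted p = 0.049), and it was no longer called after quantile normalization, with a pseudocount of 1 or 0.01 FPKM, or without the trend.

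The promoters of Gm33671 and Gm19757 share the printed letters with Gm14149, and their members rose from 0 or near it. Gm33671 (NONMMUT079895.1) was listed at 0 in both untreated samples and was at 1.41 and 1.90 FPKM after 5-AZA. Gm19757 (NONMMUT058286.2) was at 0.000921 and 3.16e-37 FPKM in untreated cells and at 1.60 and 1.07 FPKM after 5-AZA. Both were well below Gm14149 in level per length after 5-AZA, and in all 3 the groups did not overlap. They were named for their promoters after their values were seen.

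All 6 members called lower overlapped a RefSeq gene or pseudogene, as did all but 16.2% of the tested members. NONMMUT016179.2 (chr12:119263632-119264275, plus strand), over the pseudogene Ncoa4-ps, went from 24.9 and 16.7 FPKM to 1.05e-07 and 1.20e-10 FPKM, which are 0 in effect (fitted log2 fold change -7.68, adjusted p = 0.00554). NONMMUT058514.2, over Tmcc1 and the pseudogene Gm8203, went from 5.20 and 7.54 FPKM to 0.0672 and 0.00540 FPKM. NONMMUT021245.2, over Mtmr9, went from 7.20 and 6.70 FPKM to 0.245 and 0.310 FPKM (log2 fold change -4.23, adjusted p = 0.0103). In these 3 both 5-AZA samples lay below both untreated samples, as the rule for naming falls required. A copy such as Ncoa4-ps can share reads with its parent gene, so its value is uncertain. Of the 59 called higher 4 (6.78%, against 9.31% of tested members) also overlapped a pseudogene, among them NONMMUT021401.2, Gm14149 (NONMMUT040449.2) and NONMMUT065088.2.

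NONMMUT011508.2, which lies against the strand of Tom1l1, was at 1.27 and 2.49 FPKM in untreated cells and listed at 0 in both 5-AZA samples (adjusted p = 0.0468). NONMMUT059089.2, over 2310001H17Rik, went from 1.38 and 1.72 FPKM to 7.94e-26 and 7.01e-16 FPKM (adjusted p = 0.029). Its whole locus summed to 3.76 and 3.99 FPKM in untreated cells and 2.03 and 1.85 FPKM after 5-AZA (log2 fold change -0.96, not called). NONMMUT049853.2, an isoform of Snhg3, went from 2.47 and 3.53 FPKM to 0.299 and 0.314 FPKM (log2 fold change -2.91, adjusted p = 0.0443). These 3 lost their call under several other settings. The whole Snhg3 locus did not follow its isoform, with a sum of 22.1 and 31.9 FPKM in untreated cells and 29.3 and 22.1 FPKM after 5-AZA (log2 fold change -0.06, not called).

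Members away from protein-coding genes were called higher more often than members on them. Of the 830 on a coding gene of the same strand 2 (0.241%) were called higher, and of the 770 on a coding gene of the opposite or unknown strand only 4 (0.519%). Of the 1012 on noncoding genes or pseudogenes only 28 (2.77%) were called higher, and of the 504 on no RefSeq gene 25 (4.96%). The median log2 fold changes of these 4 groups were -0.26, -0.10, 0.02 and 0.02. Of the members that overlapped no coding gene, the called-higher ones lay a median of 70087 bases from the nearest, against 15558 bases for all tested.

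The share called higher also differed with exon number. It was 1.29% of the 1858 tested members with 2 exons, 1.90% of 631 with 3, 3.95% of 304 with 4 and 3.41% of 323 with 5 or more. Of the 41 tested members with at least 10 exons limma called 0 higher and 0 lower. Members with more exons were also longer, at a median of 1852 bases for 5 or more exons against 1289.5 bases for 2, and length and exon number were not separated. The differences between these groups of members were not tested, since members of a locus share reads.

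**Figure D3:**
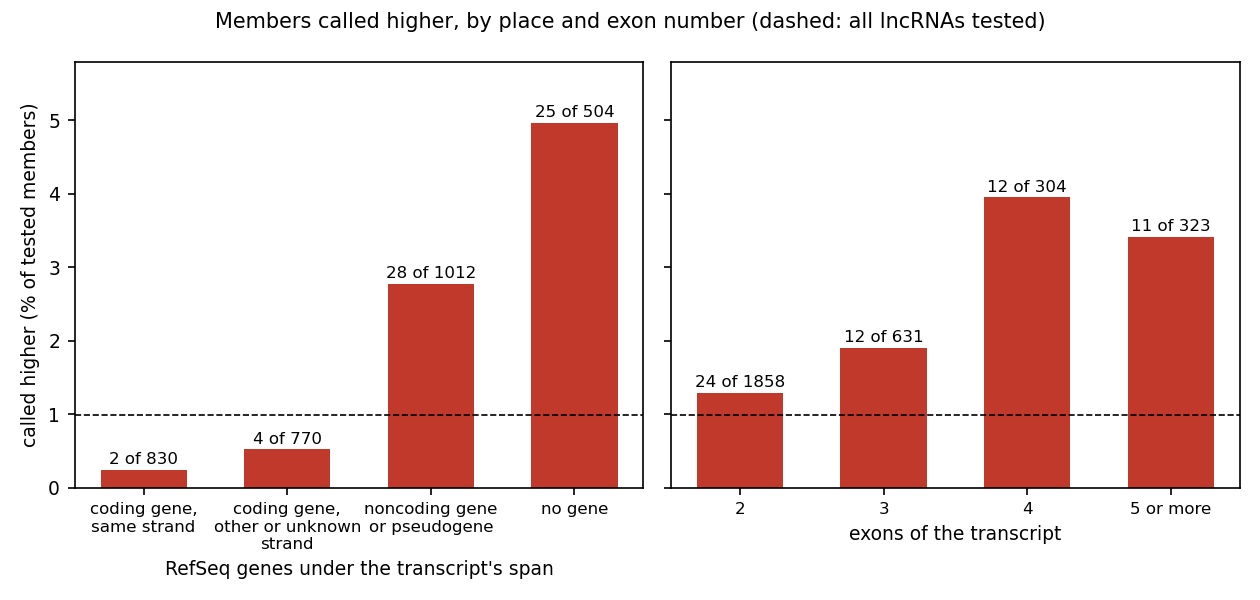
Percent of tested members called higher after 5-AZA, by the RefSeq genes under their span (left) and by exon number (right), with the number called of the number tested above each bar and a dashed line at 0.984%, the share over all lncRNAs tested. The bars on the left run from 0.241% for members on a coding gene of the same strand to 4.96% for members on no RefSeq gene.

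The members with the most exons belonged mostly to known lncRNAs and were not called. NONMMUT015751.2, a transcript of Rian with 26 exons, was at 1.77 and 1.13 FPKM in untreated cells and 1.30 and 2.12 FPKM after 5-AZA, with overlapping groups. NONMMUT087714.1 had 25 exons, NONMMUT061814.2 and NONMMUT081874.1 had 22 and NONMMUT072385.2, a transcript of Firre, had 20. NONMMUT061814.2 was at 0.195 and 0.146 FPKM in untreated cells and 0.372 and 0.458 FPKM after 5-AZA, with no overlap between groups and no call.

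Most known lncRNAs with a described role were not called. Of 63 names on a list drawn up by role, 47 had a member and 36 had a tested one. H19 and Snhg14 were called higher and 0 were called lower when the most abundant member of each was taken, with limma at an adjusted p of 0.05. The median log2 fold change of the 36 was 0.09, with a range of -2.81 to 8.67. Over all 135 tested transcripts of these genes 3 were called higher and 1 lower, where the shares over all lncRNAs tested were 0.984% and 0.154%.

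Snhg14 carries clusters of small nucleolar RNAs in the imprinted Prader-Willi region and contains Ipw. Its member NONMMUT061631.2 (chr7:59676663-59686523, minus strand, 5 exons) was at 0.0242 and 0.0448 FPKM in untreated cells and at 13.1 and 13.9 FPKM after 5-AZA. The 2 samples of each group were close together and the groups far apart, with a log2 fold change of 6.66 (SE 0.26, adjusted p = 0.00483). A second transcript there, NONMMUT061610.2, also passed (log2 fold change 4.91, adjusted p = 0.0115), and all 24 members of the locus summed to 0.0450 and 0.0451 FPKM in untreated cells and 17.0 and 17.8 FPKM after 5-AZA.

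The 9 hosts of small nucleolar RNAs, Snhg14 included, had a median log2 fold change of 0.30. All 9 lay above 0 as deposited but 6 after quantile normalization, and Snhg14 was the one called. Snhg15 (NONMMUT008504.2) was at 3.66 and 2.58 FPKM and then at 11.5 and 13.1 FPKM (log2 fold change 1.96, adjusted p = 0.0779), and Snhg12 (NONMMUT049832.2) at 12.2 and 13.5 FPKM and then at 21.9 and 29.4 FPKM (log2 fold change 0.98, adjusted p = 0.231). In both the groups did not overlap, and neither passed the test. Gas5, a host RNA that accumulates in growth-arrested cells, was at 95.9 and 117 FPKM in untreated cells and 105 and 117 FPKM after 5-AZA, with overlapping groups, and its log2 fold change of 0.07 turned to -0.99 after quantile normalization.

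Malat1 (NONMMUT033599.2), a retained RNA of nuclear speckles and the most abundant of the known members, was at 2223 and 2616 FPKM in untreated cells and 2233 and 2211 FPKM after 5-AZA. Xist (NONMMUT073455.2), which coats the inactive X chromosome, was at 103 and 104 FPKM and then at 109 and 115 FPKM, a log2 fold change of 0.12 that turned to -0.95 after quantile normalization. Firre (NONMMUT072396.2), an X-linked RNA that holds chromosomal regions together, was at 2.35 and 3.13 FPKM in untreated cells and 0.516 and 0.162 FPKM after 5-AZA. The Firre samples did not overlap, but its log2 fold change of -2.81 (SE 0.51) did not pass the test at an adjusted p of 0.162. Its other tested transcripts differed among themselves in sign, and the whole Firre locus summed to 4.60 and 6.54 FPKM in untreated cells and 2.41 and 2.42 FPKM after 5-AZA (log2 fold change -1.15, not called).

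Of the 6 muscle and cardiac lncRNAs only H19 was called. Meg3 (NONMMUT015697.2), the maternally expressed RNA of the Dlk1 domain, was at 13.5 and 14.7 FPKM in untreated cells and 15.5 and 18.8 FPKM after 5-AZA. Rian (NONMMUT015778.2), of the same domain, was at 34.5 and 42.9 FPKM and then at 24.9 and 43.9 FPKM. Mirg (NONMMUT015862.2), the miRNA host at its end, was at 1.30 and 0.734 FPKM and then at 0.727 and 0.142 FPKM (log2 fold change -1.27). The 13 members of the Mirg locus summed to 5.46 and 7.69 FPKM and then to 4.67 and 6.33 FPKM (log2 fold change -0.25). Carmn (NONMMUT032610.2), an enhancer RNA of the cardiac and smooth muscle lineages, was at 3.57 and 3.62 FPKM and then at 3.35 and 2.71 FPKM. None of these 4 passed the test, their adjusted p in limma ranging from 0.53 to 0.797, and Rian overlapped between the groups.

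The growth and stress group held 11 tested genes with a median log2 fold change of 0.03 and 0 calls. Tug1 (NONMMUT008302.2), a conserved RNA first described in retina, had 9.31 and 13.0 FPKM in untreated cells and 4.96 and 7.32 FPKM after 5-AZA, and its log2 fold change of -0.86 did not pass the test (adjusted p = 0.369) and was -0.40 for its whole locus. Mir22hg (NONMMUT010720.2), the host of miR-22, was at 11.7 and 12.9 FPKM and then at 14.9 and 12.7 FPKM. The 2 imprinted genes of their own group (Airn and Nespas) and the 3 adipose or mesenchymal ones (Dubr, Hotairm1 and Lncbate1) had medians of -0.13 and -0.09 and 0 calls.

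**Figure D4:**
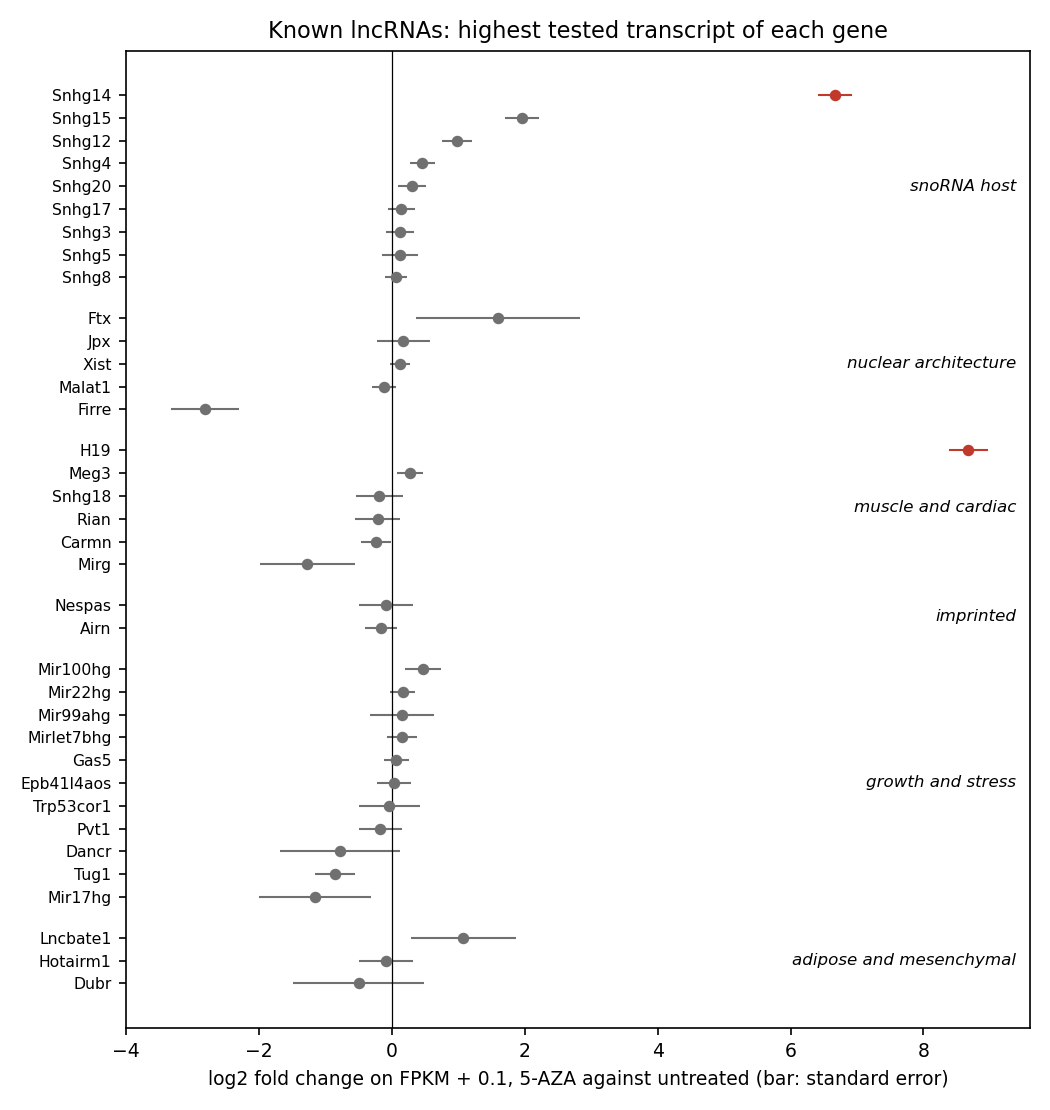
Log2 fold change (x axis, on FPKM + 0.1) of the most abundant tested member of each of the 36 known lncRNAs, grouped by role, with bars for the standard error. H19 at 8.67 and Snhg14 at 6.66 are called higher and stand far to the right, while most others lie near 0.

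RefSeq placed 62 miRNA hairpins, on the same strand, in 51 tested members of 28 loci, and of these members 1 (H19, with miR-675 as printed above) was called higher and 0 lower by limma at an adjusted p of 0.05. Over all lncRNAs tested 0.984% were called higher, so 1 of 51 is a count too small to set the hosts apart, and 34 of those not called had a log2 fold change under 1 in size. The host of Mir322 and Mir503 (NONMMUT072472.2), a cluster induced in muscle differentiation, was at 24.05 and 23.79 FPKM in untreated cells and 16.5 and 17.1 FPKM after 5-AZA. The 5-AZA samples were both lower, and the log2 fold change of -0.51 (adjusted p = 0.343) did not pass the test. The seed of mmu-miR-322-5p, in capitals, is that of mmu-miR-16-5p, whose host NONMMUT021162.2 was at 2.06, 2.79, 3.28 and 2.32 FPKM in the 4 samples.
mmu-miR-322-5p: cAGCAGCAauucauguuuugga
mmu-miR-16-5p: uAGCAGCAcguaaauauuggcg
Mature miRNAs were not measured in these libraries, so these values are levels of the host transcripts.

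Further members among the 10 most abundant were not called. NONMMUT010161.2, over 2410006H16Rik, was at 323 and 338 FPKM in untreated cells and 424 and 443 FPKM after 5-AZA, with no overlap, and its log2 fold change of 0.39 turned to -0.85 after quantile normalization. NONMMUT068696.2, which overlaps the span of the coding gene Hspa8, was at 627 and 618 FPKM and then at 493 and 585 FPKM. Hspa8 itself was at 570 and 542 FPKM and then at 580 and 642 FPKM, and the 2 may share reads. NONMMUT029644.2 (chr17:39843013-39844025) was at 1245 and 738 FPKM and then at 583 and 812 FPKM. The 5-AZA samples of NONMMUT068696.2 lay below both untreated samples, and those of NONMMUT029644.2 overlapped them.

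A group of 18 tested members at the start of chromosome 9 (chr9:3000193-3168181), picked out after the values were seen, varied mainly in untreated 1. Its most abundant transcript, NONMMUT067849.2, was at 1514 and 8254 FPKM in untreated cells and 4241 and 7480 FPKM after 5-AZA. Untreated 1 was the lowest of the 4 samples in all 18, the level in untreated 2 was a median of 3.53 times that in untreated 1 (1.60 to 5.45), and 0 were called by limma at an adjusted p of 0.05. Their sums were 1788 and 9193 FPKM in untreated cells and 4870 and 8388 FPKM after 5-AZA. Each span overlapped others of the group, and only 1 of the 18 was on the plus strand. The 18 may share reads and are not separate observations.

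Summing the members of each locus gave similar counts. Of the 17691 loci of members 12077 hold 1 member, whose sum is the member itself, so this likeness is partly built in. Of 2430 loci tested 55 were called higher and 6 lower, and 53 and 4 of these hold a member called in the same direction. Over loci and all other lncRNAs fitted with them 1.03% were called higher and 0.167% lower. The 59 members called higher lay in 57 loci, and 2 loci held 2 of them each.

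Most of the tested coding genes within 100 kb that lay nearest to risen members were not called. Of the 59 members called higher 23 had their nearest coding gene beyond 100 kb, and others had one that was not tested. A tested coding gene lay nearest, within 100 kb, for 19 of the 59 members called higher, and 4 of these 19 genes (21.1%) were themselves called higher, against 118 of the 1522 distinct genes (7.75%) nearest to any tested member and 13.1% of all 13199 genes tested. The median log2 fold change of the nearest gene was 0.03 for members called higher and -0.01 over the 1522 genes. Slc47a1, a transporter of organic cations 13508 bases from NONMMUT085309.1, went from 0.0267 and 0.0261 FPKM to 12.0 and 19.3 FPKM (log2 fold change 6.92). Mgst2, a microsomal glutathione transferase 20380 bases from NONMMUT042998.2, changed by 2.89, Plekha2 by 1.52 at 17754 bases from NONMMUT064965.2 and F830016B08Rik by 3.82 on the log2 scale. Among genes flanking the 10 largest rises at any distance, Fam161a, Stc1, Rnf112, Gm28710, Lmcd1 and Chrdl1 were also called higher. Xpo1, Tubb3 and Def8 were not called, several others were not tested, and Mrpl23, Igf2, Helt and Acsl1 are given below.

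On either side of H19 the genes differed. Mrpl23, a mitochondrial ribosomal protein gene 34783 bases away, had a log2 fold change of 0.04 and was not called. Igf2, the imprinted fetal growth factor gene that shares enhancers with H19, lies 72622 bases away and went from 1.34 and 0.855 FPKM to 26.5 and 25.7 FPKM (log2 fold change 4.48, limma adjusted p = 1.93e-06). Both 5-AZA samples were above both untreated samples at Igf2. Near NONMMUT065481.2, Acsl1, an enzyme that activates long-chain fatty acids, went from 16.0 and 15.0 FPKM to 78.9 and 108 FPKM at 71095 bases, while the nearer gene Helt was listed at 0 in all samples. Of the members called lower, NONMMUT011508.2 overlaps Tom1l1, which was called higher (log2 fold change 1.89).

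**Figure D5:**
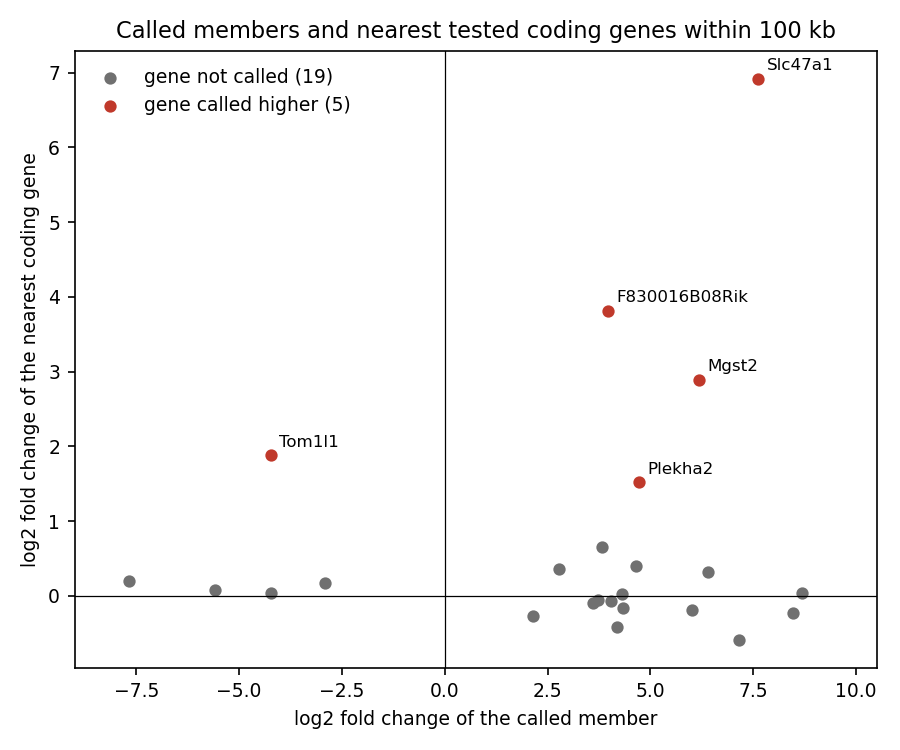
Log2 fold change of each called member (x axis) and of its nearest coding gene where that gene was tested and within 100 kb (y axis), with genes called higher in colour and named. Beside the 19 members called higher with such a gene, 4 genes are called, and most of the others lie near 0 on the y axis.

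The promoters of the called members were also searched for short motifs on both strands. CAGCTG, an E box that basic helix-loop-helix factors such as MyoD can bind, was in 5 of the 8 promoters of members called higher (62.5%), against 16.6% of the 435 promoters of members not called and 16.3% of all 32851. In 3 of these 5 it lay in the letters that Gm14149, Gm33671 and Gm19757 have in common around the printed run, so the 5 are not independent. CAGGTG, another E box, was in 1 of the 8 (12.5%, against 20.2% of all), TATAAA in 1 (12.5%, against 13.6%) and the longer motif of the muscle factor MEF2 in 0 (against 0.11%). The median number of CG dinucleotides was 9.5 in the 8 promoters and 16 in those of members not called, and 7 over all promoters of the table. These are counts of letters that do not show binding or a cause.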

How the data were processed

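The authors sequenced stranded total RNA libraries and deposited FPKM values per transcript, for lncRNAs with their NONCODE annotation. The submitters' processing notes name Trimmomatic, HISAT2, Bowtie2 2.2.9 and eXpress 1.5.1, and mm9 as build. Depth per sample is not given in the sources used here, so no counting error could be set. The deposited circRNA table was not used.

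Members, gene lists and tests were chosen with earlier results of these data known. FPKM was transformed to log2(FPKM + 0.1). All 24075 lncRNAs with a mean of at least 0.1 FPKM were fitted with limma 3.58.1 in R 4.3.3 (eBayes with trend), with Benjamini-Hochberg adjustment over all of them. Genes (transcripts summed) were fitted in the same way. With 2 samples against 2, an exact two-sided permutation test cannot go below p = 0.333. The fit was tested on simulated data. Other pseudocounts, limits, scalings and leaving out each sample were tried. Named members were the 10 largest called rises and falls with no overlap of the groups and a mean of at least 1 FPKM in the higher group, the 10 most abundant, those the study names, the 5 with the most exons, and the most abundant member of each known lncRNA. Members named for their locus, neighbour, promoter or miRNA were chosen after their values were seen. RefSeq tables of GRCm38.p6 gave gene positions and sequences.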

Additional observations from a re-analysis of the deposited data

How the results depend on the processing

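The 59 rises and 6 falls kept their direction under every setting in which they were fitted, but their number did not hold. Only the scalings could have turned a direction, since the untreated and 5-AZA samples overlapped in none of these members. Called higher were 39 members with a pseudocount of 1 FPKM, 38 (of 682 tested) at a mean of at least 1 FPKM, 276 without adjustment and 0 (of 12303) with no limit on low values, where limma gave 236 past 2-fold at an unadjusted p below 0.05. Called lower were 3 with a pseudocount of 1 FPKM, 2 with 0.01 FPKM, 165 without adjustment and 0 with no limit (136 unadjusted). With any of the 4 samples left out, which leaves a lone sample assumed to vary like the rest, limma called 0 higher and 0 lower, for members and for locus sums alike, with 145 to 207 falls unadjusted. Locus sums called lower were 3 with a pseudocount of 1 FPKM. Other settings left 42 to 63 called higher. The median log2 fold change was -0.043 and -0.15 with pseudocounts of 1 and 0.01 FPKM, 0 with no limit, 0.041 after centring, which raised every change by 0.17, -0.011 after quantile normalization and -0.10 to -0.063 without a sample, so its sign rests on the scaling. At 0.1 FPKM or more there were 2741, 2688, 2868 and 2963 members, and at 10 FPKM or more 83, 95, 122 and 119. No paired analysis was possible because the labels number the untreated samples 1 and 2 and the 5-AZA samples 101 and 102. The causes of these differences were not tested.

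Of 63 named members 24 changed sign under some setting, of which 0 were called. After centring these were Trp53cor1 (0.13), Nespas (0.075), Hotairm1 (0.073), Malat1 (0.047) and NONMMUT087714.1 (0.012). After quantile normalization they were NONMMUT010161.2 (-0.85), Snhg3 (-0.13), Snhg5 (-0.043), Xist (-0.95), Gas5 (-0.99), Snhg8 (-0.10), Epb41l4aos (-0.093), Trp53cor1 (0.14), Nespas (0.10), Hotairm1 (0.084) and Pvt1 (0.024). With samples left out in turn the log2 fold changes ranged from -0.10 to 3.71 for NONMMUT020725.2 (Rpph1), where 5-AZA 102 decides the sign, and from -0.55 to 1.90 for NONMMUT067849.2, where untreated 1 does. The range was -0.12 to 0.55 for NONMMUT015751.2 (Rian), -0.19 to 0.53 for Jpx, -0.43 to 0.73 for Mir99ahg, -0.012 to 0.31 for Mirlet7bhg, -0.063 to 0.31 for Snhg3, -0.20 to 0.44 for Snhg5, -0.074 to 0.21 for Gas5 and -0.26 to 0.32 for Epb41l4aos. It was -0.52 to 0.45 for Trp53cor1, -0.46 to 0.28 for Nespas, -0.58 to 0.39 for Hotairm1, -0.39 to 0.086 for NONMMUT087714.1, -0.36 to 0.014 for Pvt1, -0.53 to 0.16 for NONMMUT081874.1, -0.54 to 0.16 for Snhg18, -0.62 to 0.19 for Rian (NONMMUT015778.2), -1.65 to 0.65 for Dubr and -1.94 to 0.37 for Dancr.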
